A study of Mus musculus with 3 samples.

Results

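Fibroblast growth factor (Fgf) signalling was described here through 8 genes of the mouse palate: the ligands Fgf7, Fgf10 and Fgf18, the receptors Fgfr1, Fgfr2 and Fgfr3, and the feedback inhibitors Spry1 and Spry2. The members were taken by name, and all 8 are among the 32285 genes counted in the series. Their levels were read in epithelial, mesenchymal and skeletal cell classes at embryonic days E13.5, E14.5 and E15.5. All 3 groups came from palatal shelves of wild-type C57BL/6J mice, with no mutant, transgene or treatment in any of them. Each stage is 1 single-cell RNA-seq library made from the pooled tissue of 3 embryos, so embryos cannot be told apart and there are no replicates. No p-value is given, and every interval covers counting error only.

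An Fgf ligand binds a receptor tyrosine kinase together with heparan sulfate, and the receptor then drives the Ras and MAP kinase cascade. Fgf7 and Fgf10 are made mainly by mesenchyme and act on the IIIb splice forms of the receptors, chiefly Fgfr2-IIIb of epithelium. Fgf18 acts mainly on IIIc forms and is known for its role in bone and cartilage. Sprouty proteins such as Spry1 and Spry2 are induced by the cascade and dampen it. In the palate, Fgf10 of the mesenchyme and Fgfr2 of the epithelium are known as a signalling pair needed for shelf growth, and loss of either gives cleft palate in mice. During E13.5 to E15.5 the shelves grow, lift above the tongue and fuse.

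The libraries held 4236, 2079 and 3113 cell barcodes in stage order, with 11472663, 5293977 and 8313677 UMIs (unique molecular identifiers, each 1 captured transcript) and medians of 1614 to 1735 UMIs per barcode. After filtering, 3567, 1745 and 2574 cells were kept, and at most 3 barcode sequences were shared by a pair of libraries. Cells were clustered without the Fgf pathway genes, so the members did not shape the classes. The mesenchymal lineage (clusters named mesenchymal-like, osteogenic-like or chondrogenic-like, plus a pair of clusters between them) held 631, 1172 and 1735 cells. That was 17.7% of cells at E13.5, against 67.2% and 67.4% later. At E13.5, 49.6% of cells were neuronal-like, against 7.39% and 6.68% at the later stages. All 13 mesenchymal markers were detected in the lineage at each stage, but their summed level was 2914 CPM at E13.5 against 9154 and 10543 CPM later, where CPM is the UMIs of a gene in a class scaled to 1e6 UMIs of that class. Epithelial-like cells numbered 150, 170 and 329 and showed all 13 epithelial markers at every stage. Levels below are in CPM, which takes no account of gene length, so a gene is compared between classes and not with another gene. In a summed class, fewer cells with a transcript and fewer transcripts per cell cannot be told apart from the level alone.

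The 250 bases upstream of the ligand genes are shown because, from E13.5 to E15.5, Fgf7 and Fgf10 differed past 2-fold in the mesenchymal lineage and Fgf18 did not. They are RefSeq sequences of build GRCm38.p6, read along the gene's strand. Capitals mark matches, on either strand, to the forkhead core TGTTTAC, the homeobox core TAATTG or the GC box GGGCGG.
Fgf7, chr2:126034408-126034657, plus strand: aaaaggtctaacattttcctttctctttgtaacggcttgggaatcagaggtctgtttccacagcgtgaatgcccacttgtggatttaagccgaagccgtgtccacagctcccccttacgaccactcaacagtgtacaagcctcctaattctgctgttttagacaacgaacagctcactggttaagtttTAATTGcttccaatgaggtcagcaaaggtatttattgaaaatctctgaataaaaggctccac
Fgf10, chr13:118714449-118714698, plus strand: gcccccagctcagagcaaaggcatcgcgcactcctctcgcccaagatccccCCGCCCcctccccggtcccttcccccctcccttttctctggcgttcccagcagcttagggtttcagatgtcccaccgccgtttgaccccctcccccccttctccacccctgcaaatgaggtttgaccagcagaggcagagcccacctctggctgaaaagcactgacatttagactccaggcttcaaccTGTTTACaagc
Fgf18, chr11:33147401-33147650, minus strand: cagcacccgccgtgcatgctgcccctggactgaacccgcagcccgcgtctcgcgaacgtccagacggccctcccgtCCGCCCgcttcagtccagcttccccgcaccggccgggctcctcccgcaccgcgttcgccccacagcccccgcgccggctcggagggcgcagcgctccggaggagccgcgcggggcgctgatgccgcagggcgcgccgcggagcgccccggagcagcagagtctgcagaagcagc
The Fgf7 window had 43.6% G or C and held 1 homeobox core, a motif in 7.17% of the 32851 RefSeq windows of this length. The Fgf10 window had 61.2% G or C and held 1 forkhead core, found in 3.17% of windows, and 1 GC box in reverse (CCGCCC), found in 32.7%. The Fgf18 window had 77.2% G or C, against a median of 52.4% over all windows, and 1 GC box in reverse. No window of the ligands held the ETS core CCGGAA, which 12.0% of all windows hold. The genes lie downstream: Fgf7 (ENSMUSG00000027208) at chr2:126034658-126091185, Fgf10 (ENSMUSG00000021732) at chr13:118714699-118792573 and Fgf18 (ENSMUSG00000057967) at chr11:33116970-33147400. Fgf7 overlaps Fam227b and Fgf10 overlaps Gm16263, both on the opposite strand. Fgfr1 overlaps Gm16159, Fgfr3 overlaps G630022F23Rik and Spry1 overlaps Gm42922 in the same way. Strand use in counting is not given in the sources used here, so counts of these 5 members are uncertain where the genes overlap.

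Fgf10 had a higher level in the mesenchymal lineage at each later stage. In the mesenchymal lineage it stood at 22.2 CPM (34 UMIs, 95% Poisson interval 15.3 to 31.0) at E13.5. It was at 57.0 CPM (158 UMIs, 48.5 to 66.6) at E14.5 and at 79.0 CPM (373 UMIs, 71.2 to 87.5) at E15.5. The E13.5 interval lies below both later ones. The lineage held 34 of the 83 Fgf10 UMIs of the kept cells at E13.5, so most lay outside it, and 158 of 226 at E14.5. At E15.5 the lineage held 85.9%. A muscle-like cluster of 34 cells, with a median of 6828 UMIs, held 11.1% at a level of 129 CPM. That cluster is not stable, since the muscle cluster held 10 E15.5 cells at a clustering resolution of 0.5 and 11 at 2, and E15.5 clustered alone gave none. At resolution 2 an unnamed cluster with a median of 8462 UMIs held 27 E15.5 cells. Within the lineage, mesenchymal-like cells stood at 21.8, 67.4 and 104 CPM, while osteogenic-like cells stood at 54.2 and 24.3 CPM at E14.5 and E15.5. One E15.5 cell held 31 of the 373 lineage UMIs, and the level without it was 72.8 CPM, with an interval (65.3 to 80.9) that overlaps that of E14.5.

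In the epithelium, Fgf10 was near the level of single counts at E13.5 and E15.5 and stood apart at E14.5. Epithelial-like cells had 2 UMIs (4.30 CPM) at E13.5, 30 UMIs (53.2 CPM) at E14.5 and 6 UMIs (5.02 CPM) at E15.5. Of the 30 UMIs at E14.5, 24 lay in 5 cells and 9 in 1 cell. The level without that cell was 38.5 CPM. The 11 cells with a UMI out of 170 had a median of 4.0 UMIs of mesenchymal markers against 0.0 in the other epithelial-like cells, and 9 of the 11 had a UMI of Epcam, an epithelial adhesion gene. Myeloid-like cells, which should lack the gene, stood at 20.5 CPM in the same library. The part of these values in the E14.5 level was not tested.

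Fgf7, the keratinocyte growth factor, had 15 of its 45 UMIs of kept cells in the mesenchymal lineage at E13.5. At E14.5 and E15.5 the lineage held 99 of 122 and 194 of 223. In the lineage Fgf7 stood at 9.77 CPM (15 UMIs, 5.47 to 16.1) at E13.5. It was at 35.7 CPM (99 UMIs, 29.0 to 43.5) at E14.5 and at 41.1 CPM (194 UMIs, 35.5 to 47.3) at E15.5. E13.5 was below both later stages, whose intervals overlap. Osteogenic-like cells had the higher level among the larger lineage classes, with 80.1 CPM (34 UMIs) at E14.5 and 73.0 CPM (42 UMIs) at E15.5. Mesenchymal-like cells had 31.1 and 35.7 CPM at those stages. In epithelial-like cells Fgf7 had 2, 0 and 6 UMIs in stage order. The 0 at E14.5 allows up to 5.32 CPM, so the lineage level was at least 6.71-fold higher at that stage, with 3 counts as the floor of the class.

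Fgf18, a ligand known for its action on skeletal cells, was sparse in every class shown. The lineage stood at 15.0, 14.8 and 22.9 CPM. It held 23, 41 and 108 of the 61, 56 and 131 Fgf18 UMIs of the kept cells in stage order. Within the lineage, Fgf18 was higher in mesenchymal-like cells, at 16.8, 20.5 and 24.9 CPM, than in osteogenic-like cells. The osteogenic-like cells had 1 UMI (2.36 CPM) at E14.5 and 4 UMIs (6.95 CPM) at E15.5. Epithelial-like cells had 4.30, 1.77 and 7.53 CPM, from 2, 1 and 9 UMIs.

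**Figure D1:**
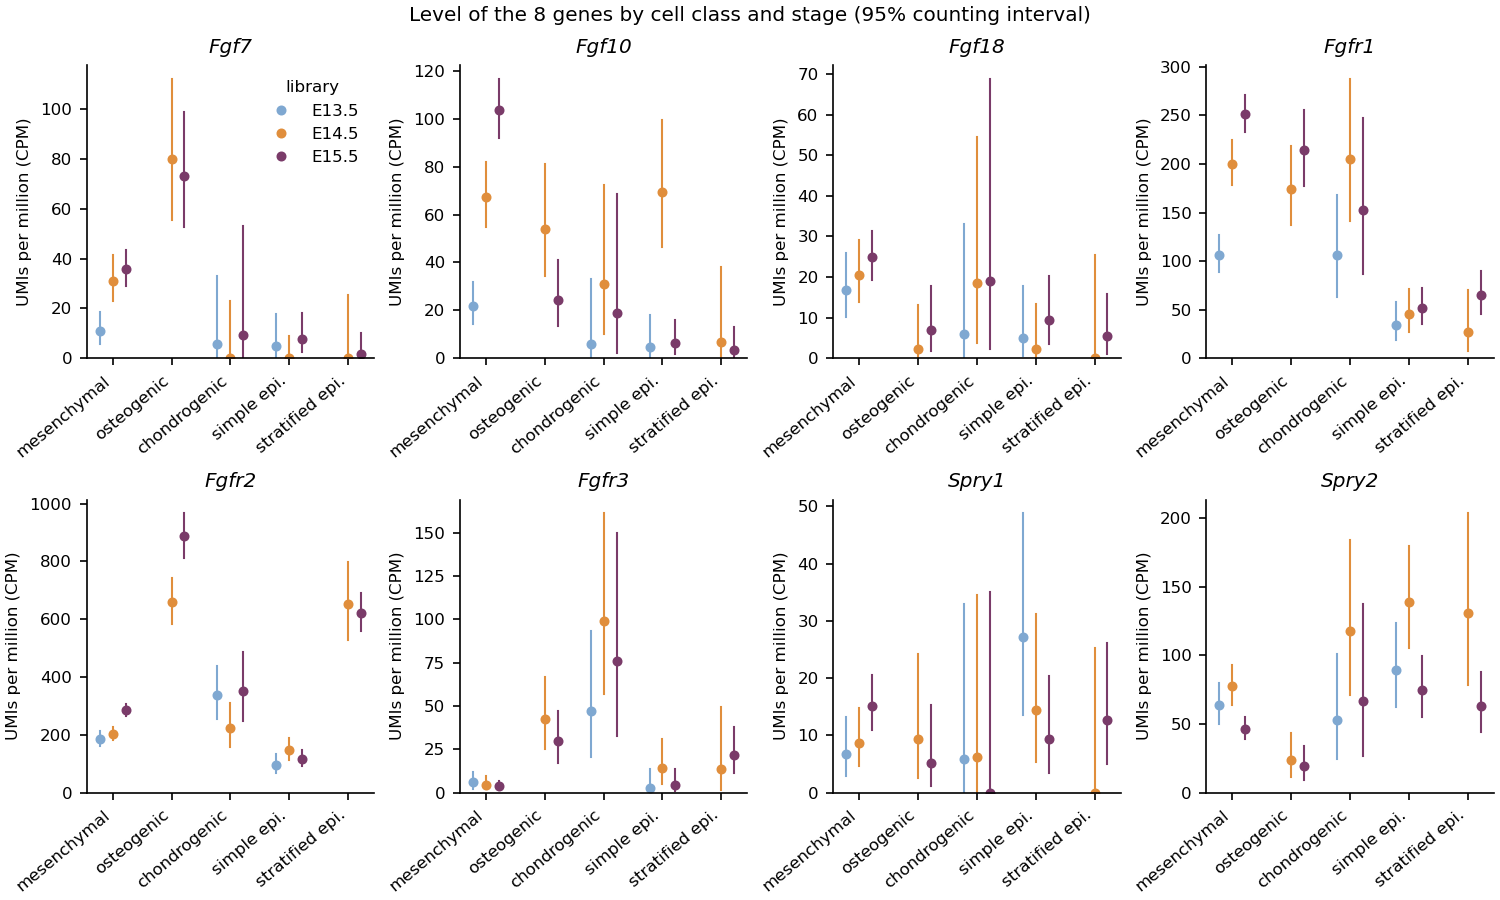
Level of each of the 8 genes in CPM (vertical axis, from 0) in 5 cell classes (horizontal axis) and 3 libraries (colours). Points are summed class levels, bars are 95% Poisson intervals, and a class with fewer than 20 cells in a library is not drawn. Fgf10 reached 104 CPM in mesenchymal-like cells at E15.5, while Fgfr2 reached 888 CPM in osteogenic-like and 622 CPM in stratified epithelial cells.

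Fgfr2 (ENSMUSG00000030849, chr7:130162451-130266808, minus strand) differed between the skeletal, epithelial and mesenchymal classes. At E13.5 the lineage held 304 and epithelial-like cells 57 of the 1266 Fgfr2 UMIs of the kept cells, so most lay in other classes. At E14.5 these were 759 and 157 of 1183, and at E15.5 they were 1600 and 419 of 2280. In osteogenic-like cells Fgfr2 stood at 659.5 CPM (280 UMIs, 585 to 741) at E14.5 and at 888 CPM (511 UMIs, 813 to 969) at E15.5. Mesenchymal-like cells had 186, 204 and 286 CPM in stage order. Epithelial-like cells as a whole had 123, 279 and 351 CPM (57, 157 and 419 UMIs), but the 2 epithelial classes differed. Cells led by Krt13, Krtdap and Krt5, keratin and cornification genes of stratified epithelium, had 652 CPM (95 UMIs, 528 to 798) at E14.5 and 622 CPM (344 UMIs, 558 to 691) at E15.5. Cells led by Bpifa1, Scgb1c1 and Reg3g, secretory genes of simple epithelium, had 148 and 117 CPM. Among classes of at least 20 cells, the 4 highest Fgfr2 levels were those of osteogenic-like cells and stratified epithelium at E14.5 and E15.5.

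The share of cells with an Fgfr2 UMI was also higher in the stratified than in the simple epithelium. With each cell thinned to 1500 UMIs and cells with fewer left out, 52.5% and 49.2% of stratified cells had a UMI at E14.5 and E15.5, against 18.4% and 11.5% of simple epithelial cells. This left out 13 and 56 stratified, 41 and 51 simple epithelial, 81 and 94 osteogenic-like and 34 and 53 myeloid-like cells. Osteogenic-like cells had 50.9% (exact Clopper-Pearson 95% interval 41.1 to 60.7) and 61.1% (52.6 to 69.1). Myeloid-like cells, taken as the reference for free RNA, had 15.6% and 3.08%, and at E14.5 their interval (6.49 to 29.5) overlapped that of the simple epithelium (10.5 to 29.0). Without thinning, 29.9% and 30.3% of simple epithelial cells had a UMI at E14.5 and E15.5, and 39 of 53 and 120 of 174 stratified cells did. In the same unthinned cells, 43.5% and 50.8% of all epithelial-like cells had a UMI at E14.5 and E15.5, against 17.7% and 12.7% of myeloid-like cells.

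Fgfr2 transcripts are spliced to IIIb or IIIc forms, which bind different ligands, and counts per gene do not separate them. Regulators of that choice were read from a separate list of 4 genes. Esrp1, which promotes the epithelial IIIb form, stood at 131, 206 and 165 CPM in epithelial-like cells. In the mesenchymal lineage at E15.5 it had 8.05 CPM, a log2 ratio of 4.20. In osteogenic-like cells at E14.5, 27 of 29 Esrp1 UMIs lay in 1 cell, and the level without it was 4.73 CPM. Rbfox2, a splicing factor of many tissues, had the opposite order at E15.5, with 312 CPM in epithelial-like cells and 672 CPM in the lineage. Esrp1 is one of the markers that name the epithelial class, though no cell was clustered on it.

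Fgfr1 (ENSMUSG00000031565, chr8:25518759-25575718) had a higher level in the mesenchymal lineage than in the epithelium at each stage. It stood at 109 CPM (167 UMIs, 92.9 to 127) at E13.5, at 190.1 CPM (527 UMIs, 174 to 207) at E14.5 and at 231 CPM (1090 UMIs, 217 to 245) at E15.5. Each later stage lay above the one before it, with no overlap of intervals. The classes of the lineage were close at E14.5, with 200.3 CPM in mesenchymal-like, 174 CPM in osteogenic-like and 205 CPM in chondrogenic-like cells. Epithelial-like cells had 32.3, 40.8 and 57.7 CPM (15, 23 and 69 UMIs), neuronal-like cells 23.5, 39.0 and 23.2 CPM, and myeloid-like cells at most 25.6 CPM. In thinned cells, with 655 lineage, 107 epithelial-like and 53 myeloid-like cells left out, 28.1% of lineage cells had an Fgfr1 UMI at E15.5, against 8.11% of epithelial-like and 3.08% of myeloid-like cells. Unthinned, the lineage and epithelial shares were 37.9% and 14.9%.

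Fgfr3 (ENSMUSG00000054252, chr5:33721724-33737068), a receptor known for restraining cartilage growth, was a low gene whose highest class level, among classes of at least 20 cells, lay in chondrogenic-like cells at every stage. Chondrogenic-like cells, led by the cartilage matrix genes Matn1 and Acan, had 47.3 CPM (8 UMIs), 99.3 CPM (16 UMIs) and 76.1 CPM (8 UMIs). Osteogenic-like cells had 42.4 CPM (18 UMIs) at E14.5 and 29.6 CPM (17 UMIs) at E15.5. Mesenchymal-like cells had 5.87, 4.63 and 3.60 CPM, below both skeletal classes at each stage where these had at least 20 cells. Outside the lineage, neural progenitor-like cells of E13.5 had 32.1 CPM (41 UMIs) and stratified epithelium at E15.5 had 21.7 CPM (12 UMIs).

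The feedback inhibitors did not share a pattern. Spry2 (ENSMUSG00000022114, chr14:105891947-105896819) stood at 62.5 CPM (96 UMIs) at E13.5, 72.9 CPM (202 UMIs) at E14.5 and 42.6 CPM (201 UMIs) at E15.5 in the lineage, lowest at E15.5. In epithelial-like cells it had 92.5, 137 and 69.5 CPM (43, 77 and 83 UMIs), also lowest at E15.5. Osteogenic-like cells were low, with 23.6 and 19.1 CPM at E14.5 and E15.5, while chondrogenic-like cells had 118 and 66.6 CPM. Spry2 was not restricted to these tissues, since neuronal-like cells had 37.3, 103 and 83.2 CPM and glial-like cells 143 CPM at E15.5. Spry1 (ENSMUSG00000037211, chr3:37639947-37644599) was sparse: the lineage had 7.17, 7.58 and 11.4 CPM (11, 21 and 54 UMIs) and epithelial-like cells 23.7, 10.6 and 10.9 CPM (11, 6 and 13 UMIs).

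Epithelium and mesenchyme of the same library were compared first, since they share the library's depth and handling. A member or gene was counted as past 2-fold from its log2 ratio, computed after adding 1 CPM on each side, and the background is the percent of genes with a mean of at least 5 CPM that passed. At E15.5, 4 of the 8 members were past 2-fold lower in epithelial-like cells than in the lineage and 0 higher, where 13.0% of all genes were lower, 15.3% higher and 28.3% either. The 4 were the 3 ligands and Fgfr1. At E14.5, 3 were lower and 0 higher against 13.6% and 14.4% (28.0% either). At E13.5, 5 were lower and 1 higher against 14.6% and 10.5% (25.1% either). Of those 5, Fgf7, Fgf10, Fgf18 and Fgfr3 had 2 epithelial UMIs each, and the fold intervals of Fgf7, Fgf18 and Fgfr3 spanned 1, while those of Fgf10 (0.0226 to 0.758) and Fgfr1 (0.162 to 0.504) did not.

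Fgfr1 was lower in the epithelium at all 3 stages, with log2 ratios of -1.72, -2.19 and -1.98. Its E15.5 ratio had a fold interval of 0.193 to 0.319. Fgf10 stood at -2.13, -0.10 and -3.73, and its fold interval at E15.5 was 0.0232 to 0.14. The E14.5 value of Fgf10 depended on the cells called epithelial: it was -1.84 with each library clustered alone, -2.50 with at least 1000 genes per cell, -2.08 with no doublets left out and -3.06 with a marker gate per cell. The receptor Fgfr2 was at -0.69, 0.02 and 0.05, so at the 2 later stages its class levels were close, with a fold interval of 0.926 to 1.15 at E15.5. Spry2 was higher in the epithelium at each stage, at 0.56, 0.90 and 0.69, short of 2-fold. Spry1 was past 2-fold higher at E13.5 alone, at 1.60 with a fold interval of 1.3 to 8.4 from 11 UMIs on each side.

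Inside the epithelium, Fgfr2 was higher in the stratified than in the simple class. The log2 ratio was 2.13 (fold interval 3.16 to 6.16) at E14.5 and 2.40 (4.13 to 6.92) at E15.5. Fgfr3 stood at 2.00 at E15.5, from 12 against 3 UMIs, with a fold interval of 1.25 to 25.6. At each stage 6 of the 8 members reached the mean of 5 CPM used for the background. Of these, 2 were past 2-fold higher and 0 lower at E15.5, where 14.0% of all genes were higher, 14.6% lower and 28.6% either. At E14.5 the counts were 1 and 2, against 17.0% and 18.8% (35.8% either).

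The skeletal classes were set against the mesenchymal-like cells of the same library. At E15.5, 3 members were past 2-fold higher in osteogenic-like cells (4.44% of all genes were) and 4 lower (8.6% were, and 13.0% in either direction). At E14.5, 3 were higher and 2 lower, against 5.76% and 9.56% (15.3% either). Fgfr2 stood at 1.69 (2.74 to 3.81) and 1.63 (2.77 to 3.47) at E14.5 and E15.5. Fgfr3 stood at 2.95 (3.65 to 26.0) and 2.73 (3.55 to 20.0), from 18 and 17 osteogenic UMIs. Both receptors kept their direction and stayed past 2-fold in every alternative that gave the comparison.

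The ligands split in the same cells. Fgf7 was higher in osteogenic-like cells, at 1.34 (1.61 to 4.09) and 1.01 (1.39 to 2.96). Its E14.5 ratio was 0.18 when each library was clustered alone. Fgf10 was at -0.31 at E14.5 and at -2.05 (0.127 to 0.4) at E15.5, but -0.41 at E15.5 when clusters were cut at resolution 0.5. Fgf18 was at -2.68 and -1.70, and at -0.39 and -0.40 with that resolution. Spry2 was lower, at -1.67 (0.142 to 0.58) and -1.24 (0.2 to 0.761). Spry1 was also past 2-fold lower at E15.5, from 3 osteogenic UMIs.

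In chondrogenic-like cells, Fgfr3 stood apart from the other members. Its log2 ratios over mesenchymal-like cells were 2.82, 4.16 and 4.07 in stage order, and it was the 1 member past 2-fold higher at each stage, where 11.2%, 11.8% and 14.9% of all genes were higher. At the 3 stages 2, 2 and 3 members were past 2-fold lower, against 17.6%, 19.5% and 19.6%, and 28.8%, 31.3% and 34.6% of genes passed in either direction. Fgfr1 was at 0.00, 0.03 and -0.72 and Fgfr2 at 0.85, 0.13 and 0.30.

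**Figure D2:**
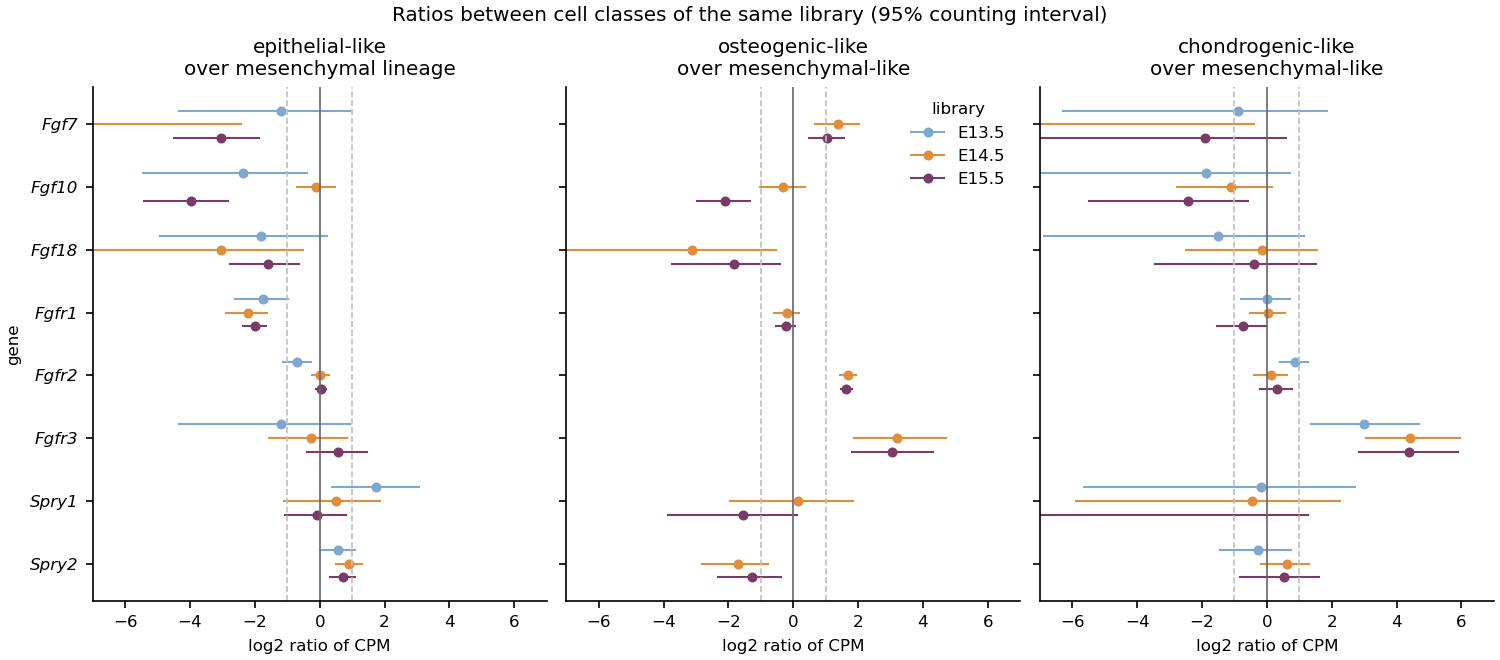
Log2 ratio of CPM (horizontal axis, no CPM added) of each gene (vertical axis) between cell classes of the same library, by library (colours). Points are ratios and bars 95% counting intervals of the fold, dashed lines mark 2-fold, and a ratio with 0 UMIs on one side has a bar and no point; bars that reach the edge run on beyond it. Fgfr1 lies left of the 2-fold line in the epithelial panel in all 3 libraries, and Fgfr2 and Fgfr3 lie right of it in the osteogenic panel.

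Between stages, the lineage differed most between E13.5 and the later pair. At E15.5 over E13.5, 3 of 8 members were past 2-fold higher and 0 lower, where 9.74% of all genes were higher, 4.58% lower and 14.3% either. They were Fgf7 (fold 4.21, interval 2.49 to 7.66), Fgf10 (3.57, 2.51 to 5.23) and Fgfr1 (2.12, 1.80 to 2.51). Fgfr2 was 1.71-fold higher (1.51 to 1.94). Spry2 was lower, with a log2 ratio of -0.54 and a fold interval of 0.531 to 0.878, short of 2-fold. The fold intervals of Fgf18 (0.967 to 2.51), Fgfr3 (0.469 to 1.69) and Spry1 (0.825 to 3.39) spanned 1. At E14.5 over E13.5, 2 members, Fgf7 and Fgf10, were past 2-fold higher (7.48% of all genes were) and 0 lower (3.36% were, and 10.8% in either direction). At E15.5 over E14.5, 0 members passed in either direction, where 1.29% of genes were higher, 1.41% lower and 2.69% either.

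The lineage did not hold the same clusters at each stage. One cluster led by Otor, Crym and Aldh1a2 held 349 cells, 55.3% of the lineage at E13.5, against 6.83% and 4.15% later. Without it the log2 ratio of Fgf10 at E15.5 over E13.5 was 1.20, in place of 1.79, and at E14.5 over E13.5 it was 0.76, in place of 1.32. The ratio of Fgf7 at E15.5 over E13.5 was 2.67 without that cluster, in place of 1.97. The whole lineage held 15 Fgf7 UMIs at E13.5, so the value without the cluster rests on fewer. Summed neuronal markers in the lineage stood at 424, 238 and 216 CPM and erythroid markers at 13161, 9921 and 10085 CPM in stage order. Chondrogenic markers stood at 1632, 1743 and 540 CPM, osteogenic markers at 577, 1974 and 1844 CPM and the markers naming the mesenchymal class at 2914, 9154 and 10543 CPM. For all of these, their part in the stage ratios was not tested.

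In epithelial-like cells, Fgfr2 had a fold of 2.86 for E15.5 over E13.5 (interval 2.16 to 3.84). With the mix of epithelial clusters held fixed, which leaves the simple class alone, the log2 ratio was 0.27 in place of 1.51. The stratified class grew from 16 cells at E13.5 to 53 and 174. In epithelial-like cells, summed mesenchymal markers stood at 211, 882 and 1206 CPM in stage order. Osteogenic markers stood at 47.4, 156 and 207 CPM and erythroid markers at 3394, 6109 and 5493 CPM. Neuronal markers stood at 534, 578 and 466 CPM and epithelial markers at 2417, 3137 and 3704 CPM. The part of these in the epithelial stage ratios was not tested. For each pair of stages, 6 of the 8 members reached the mean of 5 CPM used for the background. At E15.5 over E13.5, 2 of them, Fgfr2 and Fgfr3, were past 2-fold higher and Spry1 was lower, against 17.2% and 5.96% of all genes (23.1% either). At E14.5 over E13.5, 3 were higher, Fgf10, Fgfr2 and Fgfr3, and Spry1 was lower (15.8% and 6.67% of genes, 22.4% either). At E15.5 over E14.5, 0 were higher and Fgf10 was lower (7.49% and 5.19%, 12.7% either). Apart from Fgfr2, these calls rested on few UMIs per library: 2, 30 and 6 for Fgf10, 2, 8 and 15 for Fgfr3 and 11, 6 and 13 for Spry1. Fgf7 and Fgf18 had at most 9 UMIs in any epithelial library. Spry2 stood at -0.97 at E15.5 over E14.5, with a fold interval of 0.368 to 0.702.

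The clusters of the mesenchymal lineage carried the ligands unequally. A cluster with the transcription factor genes Glis1, Alx1 and Pax3 among its leading genes had the highest Fgf10 at each stage among lineage clusters of at least 20 cells, with 108, 99.3 and 199 CPM. At E13.5 this cluster held 22 cells, so its levels and rank at that stage rest on few cells. A cluster with Tfap2b, Msx1 and Sostdc1 among its leading genes had 96.1 and 65.0 CPM at E14.5 and E15.5. The cluster that held most E13.5 lineage cells had 12.1, 38.3 and 70.6 CPM. Fgf7 was ordered otherwise: the Msx1 cluster had 50.9 and 60.1 CPM at the later stages, a cluster with Gpc5 had 45.5 and 53.4 CPM, and a cluster led by Cdh20 and Meox2 had 13.0 and 16.8 CPM. The Glis1 cluster, highest in Fgf10, had 33.1 and 29.0 CPM of Fgf7 at the later stages, below the lineage level. The osteogenic cluster, highest in Fgf7, had Fgf10 below the lineage level. In the Msx1 cluster both ligands were above their lineage level at E14.5.

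Receptor and inhibitor levels also varied between these clusters. Fgfr2 had 314 and 347 CPM in the Msx1 cluster and 155, 136 and 194 CPM in the Glis1 cluster. A cycling cluster, with Hmmr and Melk among its leading genes, had 105, 219 and 381 CPM. Spry2 had 42.4 and 17.2 CPM in the Msx1 cluster against 61.9, 132 and 58.0 CPM in the Glis1 cluster. Its level was lower at E15.5 than at E14.5 in both.

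**Figure D3:**
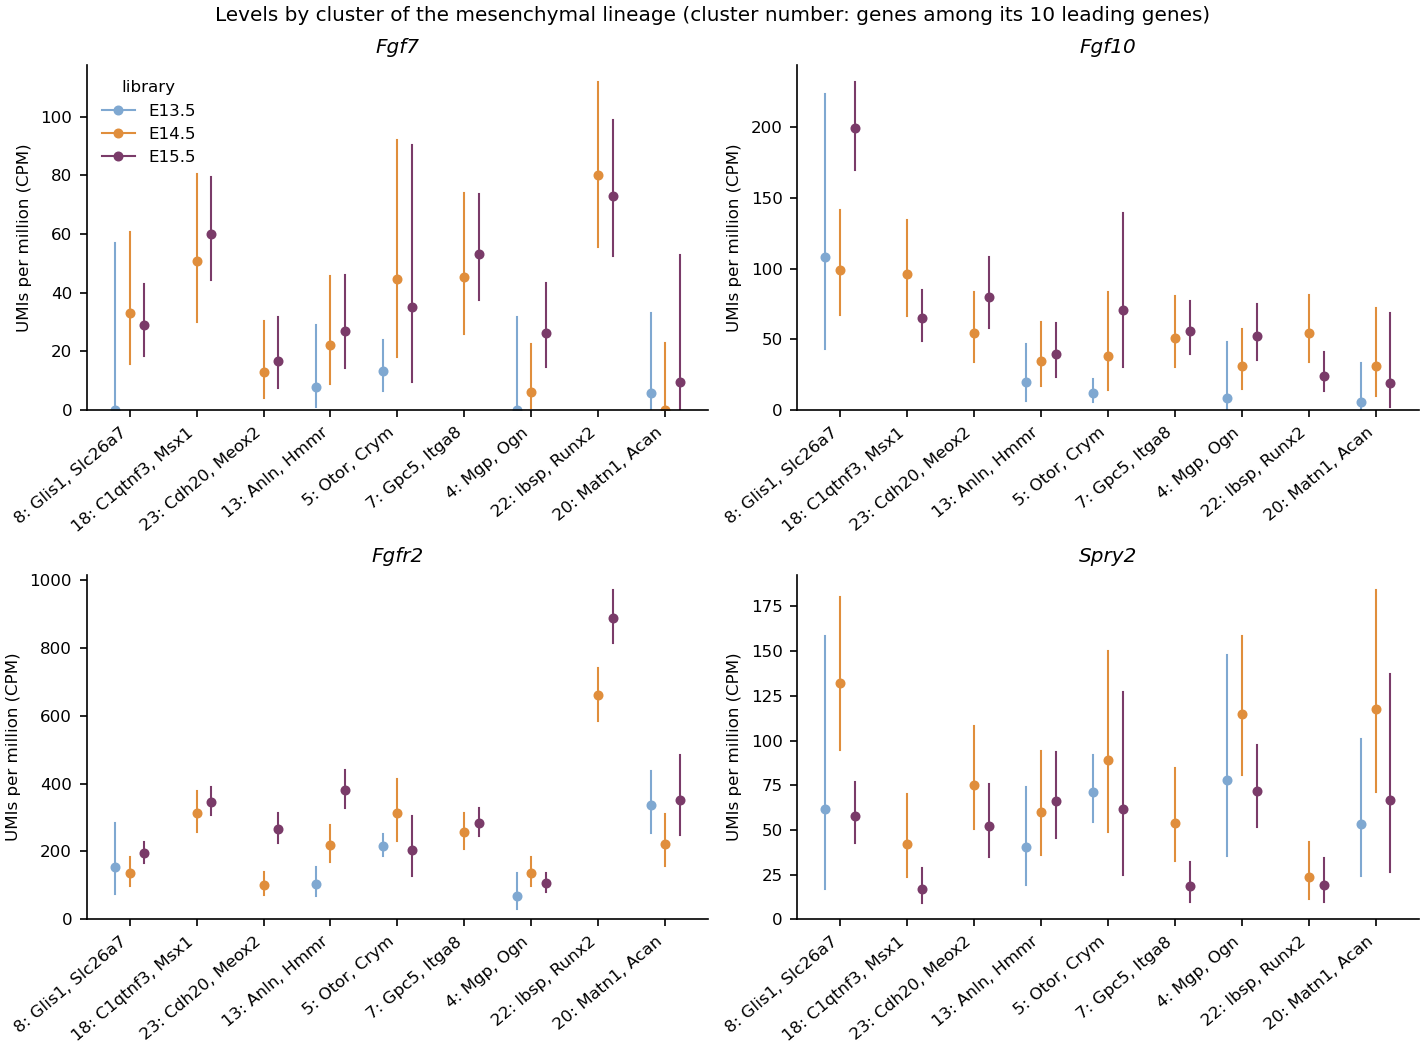
Level of Fgf7, Fgf10, Fgfr2 and Spry2 in CPM (vertical axis, from 0) in the 9 clusters of the mesenchymal lineage (horizontal axis, cluster number and genes among its 10 leading genes) by library (colours). Bars are 95% Poisson intervals, and clusters with fewer than 20 cells in a library are not drawn. Fgf10 is highest in the cluster with Glis1 at E15.5 (199 CPM), and Fgfr2 in the osteogenic cluster led by Ibsp and Runx2.

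A gate on a single gene gave a second view of the osteogenic side. Lineage cells, thinned to 1500 UMIs, were divided by a UMI of Runx2, the master transcription factor of bone formation, which is itself one of the markers naming the osteogenic class. Cells with fewer UMIs were left out, 246 of 631 at E13.5, 489 of 1172 at E14.5 and 655 of 1735 at E15.5. Of those kept, 83, 288 and 464 cells had a Runx2 UMI after thinning and 302, 395 and 616 had none. Fgfr2 stood at 265, 435 and 565 CPM in cells with Runx2, against 139, 132 and 195 CPM without, with fold intervals of 1.21 to 2.95, 2.53 to 4.36 and 2.42 to 3.48. It was higher with Runx2 at every stage.

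Fgf7 followed Fgfr2 and Spry2 did not. Fgf7 had 40.2, 46.3 and 56.0 CPM with Runx2 against 4.42, 18.6 and 29.2 CPM without, and its fold intervals lay above 1 at each stage, from 1.14 to 3.26 at E15.5. At E13.5 the comparison rested on 5 UMIs against 2, with an interval of 1.49 to 95.5. Spry2 had 64.3, 39.4 and 17.2 CPM with Runx2 against 83.9, 123 and 61.7 CPM without. Its fold intervals at E14.5 and E15.5 were 0.177 to 0.547 and 0.136 to 0.527. Fgf10 was lower with Runx2 at E15.5, at 47.4 against 96.3 CPM (0.32 to 0.742), and its interval spanned 1 at E13.5 and E14.5. Fgfr1 differed at E13.5 alone, at 209 against 110.4 CPM (1.13 to 3.10).

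**Figure D4:**
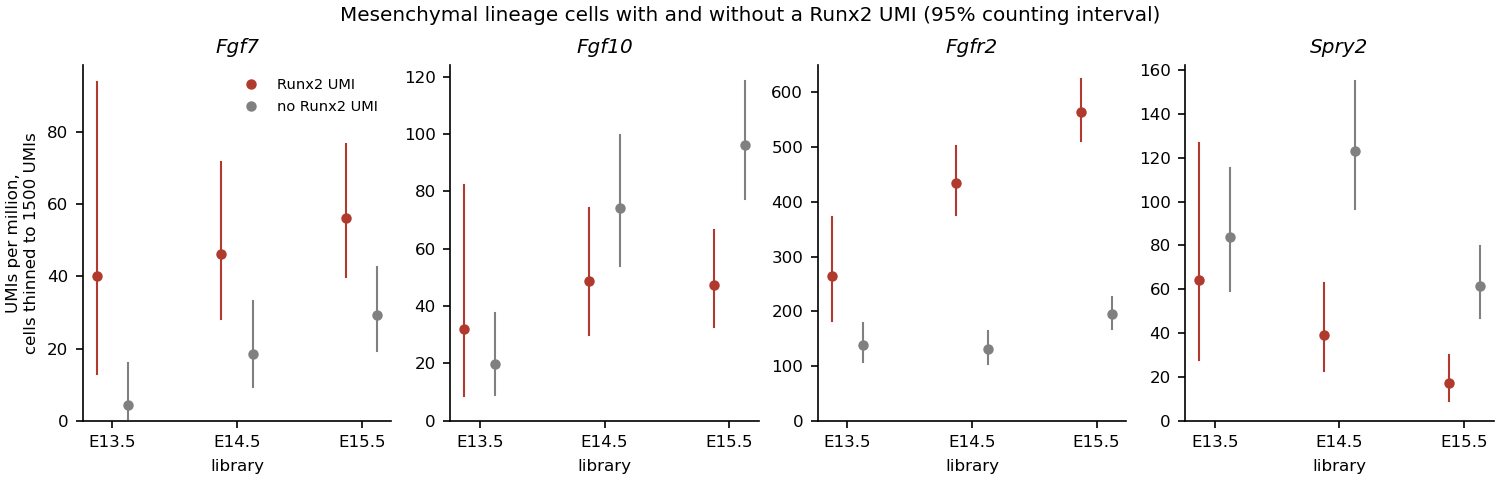
Level of Fgf7, Fgf10, Fgfr2 and Spry2 in CPM (vertical axis, from 0) in mesenchymal lineage cells with a Runx2 UMI (red) and without one (grey), each cell thinned to 1500 UMIs, by library (horizontal axis). Bars are 95% Poisson intervals. Fgfr2 is higher with Runx2 in each library (565 against 195 CPM at E15.5), and Spry2 is lower at E15.5 (17.2 against 61.7 CPM).

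Gates on regional markers were read in the same way. In each, a group was smaller than both Runx2 groups, such as 57 and 52 cells for Osr2 against Osr1 at E15.5. Their intervals therefore cannot rank them against the Runx2 gate. Shox2 marks the anterior palate, and Meox2, Barx1 and Tbx22 mark the posterior palate. At E15.5, 204 cells with Shox2 and none of the posterior markers had 265 CPM of Fgfr2, against 153 CPM in 174 cells of the opposite gate, with a fold interval of 1.17 to 2.59. No other member had an interval on one side of 1 in this gate at any stage. A gate on Osr2 against Osr1, genes that grade across the shelf, gave such an interval for Spry1 at E15.5 alone, with 0 against 6 UMIs and an upper bound of 0.775. Cells with Dlx5, a regulator of bone and shelf outgrowth, numbered 5, 13 and 26. At E15.5 they had 821 CPM of Fgfr2 against 342 CPM (1.62 to 3.43), 128 against 38.6 CPM of Fgf7 (1.04 to 8.19) and 76.9 against 237 CPM of Fgfr1 (0.0666 to 0.955). At E13.5 the 5 cells had more Fgfr1, from 4 UMIs, with a fold interval of 1.12 to 11.3. A gate on 1 UMI misses cells whose marker was not captured.

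Members were also read together in the same cells, again thinned to 1500 UMIs, which kept 1080 of the 1735 lineage cells at E15.5 and left out 655 with fewer UMIs. A UMI here is one left after thinning. At E15.5, Fgfr2 had a UMI in 34.2% of lineage cells with an Fgfr1 UMI (104 of 304) and in 27.8% of cells without one (216 of 776). Fgf10 had a UMI in 8.22% of cells with Fgfr1 and 8.25% without. Fgf7 and Fgf10 shared 5 of the 89 cells with an Fgf10 UMI, 5.62%, against 4.84% of cells without one. Spry2 had a UMI in 2.96% of cells with Fgfr1 (9 of 304) and in 6.70% of cells without (52 of 776). The 95% intervals of the Spry2 shares were 1.36 to 5.55% and 5.04 to 8.69%. They overlap at their edges, which does not show that the shares are equal. At E14.5, Spry1 had a UMI in 3.85% of cells with Fgfr1 (6 of 156) and in 0.38% without (2 of 527). Those intervals, 1.42 to 8.18% and 0.046 to 1.36%, do not overlap. At E13.5 the Spry1 counts were 0 of 67 and 5 of 318.

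Among other Fgf ligands of a list of 19, 4 reached a mean of 5 CPM in the lineage between E13.5 and E15.5. Of these, Fgf2, a broadly acting ligand, was higher at E15.5 with 11.7, 28.1 and 56.6 CPM, and Fgf14, an intracellular relative of the family, had a log2 ratio of 1.90. Neither of the other 2 passed 2-fold: Fgf13 had 0.73 and Fgf12 -0.20. Fgf9, an epithelial ligand known to act on mesenchyme, had 28.0, 21.3 and 8.37 CPM in epithelial-like cells. Fgf8 had 0 UMIs in the lineage and in epithelial-like cells at all stages.

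The other genes of the pathway were read in the lineage for E15.5 over E13.5, where 9.74% of all genes were past 2-fold higher and 4.58% lower. Of 13 feedback and target genes at or above 5 CPM, 0 were higher and 3 lower: the ETS factor gene Etv1 (-1.22), the cyclin gene Ccnd1 (-1.10) and the Fgf antagonist gene Il17rd (-1.05). The median over the 13 was -0.77, against -0.02 over all genes. Of 16 signal relay genes, such as the MAP kinase genes, 0 passed in either direction, with a median of -0.14, from Hras (-0.91) and Map2k2 (-0.68) at the low end to Braf (0.31), Gab1 (0.60) and Mapk3 (0.61) at the high end. Of 12 receptors and coreceptors, 2 were higher, Nrp1 (1.90) and the heparan sulfate proteoglycan gene Gpc4 (1.26), and 0 lower, with Fgfrl1 (-0.43), Sdc3 (-0.34) and Flrt2 (-0.33) lowest. Of 13 palate genes tied to Fgf signalling, 5 were past 2-fold higher and 1 lower, with a median of 0.83. The higher included Shox2 (1.93), Foxf1 (1.46), Foxf2 (1.36) and Pax9 (1.31), and the cartilage factor gene Sox9 (-1.60) was the lower one. Chondrogenic-like cells made up 60 of the 631 lineage cells at E13.5 and 28 of 1735 at E15.5, and their part in the Sox9 ratio was not tested.

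Other inhibitors and targets were read in osteogenic-like cells at E14.5 and E15.5. At E14.5, 0 of 10 were past 2-fold higher than in mesenchymal-like cells and 1 lower, near the shares of all genes (5.76% higher and 9.56% lower), with a median of -0.33. Of 12 such genes at E15.5, 0 were past 2-fold higher than in mesenchymal-like cells and 5 lower, where 4.44% of all genes were higher and 8.6% lower. They were Dusp6, a phosphatase gene that switches off MAP kinase, at 1.74 against 17.3 CPM (-2.74, from 1 UMI against 48, fold interval 0.00249 to 0.587), Il17rd (-1.39), Dusp5 (-1.21), Spry4 (-1.11) and Fos (-1.03). The median of the 12 was -0.50, while that of 16 relay genes was 0.02. In chondrogenic-like cells at E14.5, 4 of 12 were higher and 3 lower, against 11.8% and 19.5% of all genes, with Fos (3.04), Egr1 (2.54) and Etv5 (1.64) among the higher. The decoy receptor gene Fgfrl1 stood at 161 CPM there against 8.59 CPM in mesenchymal-like cells.

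In the epithelium at E15.5, 2 of 12 feedback and target genes were past 2-fold higher than in the lineage, Ccnd1 (1.97) and Dusp6 (1.19), and 1 was lower, against 15.3% and 13.0% of all genes. Of 12 receptors and coreceptors, 0 were higher and 6 lower, against the same shares, including Nrp1 (-2.77) and Gpc6 (-2.17). Fgf1, a ligand of all Fgf receptors, was higher (1.92), and Fgf2 was lower (-2.75). In stratified over simple epithelial cells at E15.5, 3 of 12 receptors and coreceptors were past 2-fold higher, Gpc3 (2.42), Sdc1 (2.07) and Gpc4 (1.45), and 0 lower, where 14.0% of all genes were higher and 14.6% lower. The median of the 12 was -0.04. Stratified cells had 10.8 CPM of Shh, the hedgehog ligand of the palatal epithelium, where simple cells had 0 UMIs.

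Over 22 class-by-stage units of at least 50 cells, each member was set beside 7723 genes at or above a mean of 20 CPM by the Pearson correlation of log2(CPM + 1). Units of one library share its depth and free RNA, so the values are a description and carry no p. Each named gene is among the highest of 7723 over 22 units, and the value that unrelated genes would reach was not computed. Fgf10 was most like Wnt5a (0.90), Angpt1 (0.83) and Sfrp2 (0.83). Fgf7 was most like Ednra (0.83), with Sema3a at 0.80. Fgfr1 was most like Smarca1 (0.92), Fgfr2 most like Rcor3 (0.88) and Fgfr3 most like Sox6 (0.78), a cartilage transcription factor gene. Fgf18 was most like Grk3 (0.76), Spry1 most like Mterf3 (0.78) and Spry2 most like Dnajb2 (0.89). Among the members themselves, Fgfr2 and Fgfr3 had the highest value (0.74), Fgf7 and Fgf10 had 0.50, and Fgf7 and Spry2 had the lowest (-0.38).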

How the data were processed

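Single-cell RNA was measured in 3 libraries, 1 per stage. The authors deposited counts (UMIs per gene and cell barcode); Cell Ranger 6.1.2 and build mm10 are named per the submitters' processing notes, and use of strand and introns is not given in the sources used here. Cells with fewer than 500 genes or over 20% mitochondrial UMIs were left out, as were the highest doublet scores at 0.8% per 1000 barcodes, because the doublet caller's own threshold marked 0, 4 and 1 cells (125, 30 and 66 were left out). Log counts of 2000 variable genes, without the 92 Fgf-list genes in the files, gave 30 components, 15 neighbours and Leiden clusters at resolution 1 (scanpy 1.11.5). Clusters were named from marker lists, and 1 cluster stayed unnamed. The naming rule was settled after the data were seen.

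UMIs were summed per class and stage and given as CPM with exact Poisson intervals, ratios with exact conditional binomial intervals and shares with Clopper-Pearson intervals, all at 95%. These cover counting error only, and 0 UMIs allow 3. No test was run, since a stage is 1 library. All members are named. Of each list, the rule named the 3 highest and 3 lowest genes by log2 ratio; not all are printed, and other listed genes that passed 2-fold were chosen after their values were seen. The 3 genes most like each member were computed. Members and lists were chosen with earlier results of these data known. The ratio and interval code was tested on simulated data. Gene positions and upstream sequences are from RefSeq (GRCm38.p6), which matched 7 of 8 members for the upstream window, and overlaps are from a GENCODE annotation of the same build. Values of some listed genes are not reported here.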

Additional observations from a re-analysis of the deposited data

Results flagged for a closer look

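Fgf10 went opposite ways between E14.5 and E15.5 in the 2 tissues. The log2 ratio of E15.5 over E14.5 was 0.46 in the mesenchymal lineage and -3.17 in epithelial-like cells. The difference between the tissues was not tested, because each stage is 1 library. The epithelial level rested on 30 UMIs in 11 cells at E14.5, 24 of them in 5 cells, and on 6 UMIs at E15.5. The epithelial ratio was -1.46 with each library clustered alone, -0.70 with at least 1000 genes per cell, -1.14 with no doublets left out and -1.11 with a marker gate per cell.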

How the results depend on the processing

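The values rest on 1 library per stage, on classes rebuilt by clustering and on few UMIs for Fgf18, Fgfr3 and Spry1, so differences in these genes were often within counting error. Of 127 log2 ratios, 39 were past 2-fold with a counting interval on one side of 1. Over the alternatives these 39 stayed in their direction and interval 329 times, moved 38 times and reversed 1 time. The reversal was Fgf10 at E15.5 over E14.5, at 0.31 when all kept cells of the library replaced the epithelial class. That value includes the lineage and is not an epithelial ratio. In the setting over all cells, every kept cell stands in for the class. Levels moved out of their intervals 40 of 336 times, among them 15 of 48 with the marker gate and 14 of 48 with at least 1000 genes. Shares of cells with a UMI moved 35 of 96 times, 20 of 48 without thinning and 15 of 48 at 1000 UMIs. Scaling by size factors and adding 5 CPM moved none of the ratios out of their intervals. The largest size-factor shift was 0.077 on the log2 scale, so that setting could change the ratios only a little. The settings that left out 1 cell or 1 cluster were chosen after seeing the data. No paired analysis was possible because each group is 1 sample. The per-cell marker gate gave too few osteogenic-like cells to compare, and stratified over simple epithelium gave no value at resolution 0.5, with at least 1000 genes or with the marker gate.

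Counts of members past 2-fold in either direction, with members of any level counted, moved as follows. In the lineage, the count at E15.5 over E14.5 was 1, from 0, with at least 1000 genes, with cells counted equally and with the cluster mix fixed. At E15.5 over E13.5 it was 5, from 3, over all cells, and at E14.5 over E13.5 it was 1, from 2, without the largest E13.5 cluster. In the epithelium at E14.5 over E13.5 it was 3, from 5, with 5 CPM added, with the mix fixed and over all cells. At E15.5 over E14.5, from 3, it was 5 with the marker gate and with cells counted equally, and 0 over all cells. At E15.5 over E13.5, from 3, it was 5 with at least 1000 genes, 6 with no doublets left out, 8 with the marker gate, 1 with 5 CPM added, 1 with the mix fixed and 5 over all cells. Epithelium over lineage at E14.5, from 3, gave 6 with at least 1000 genes and 6 with the marker gate. Osteogenic-like over mesenchymal-like cells gave 3 at resolution 0.5 at E14.5 (from 5) and at E15.5 (from 7), and 3 at E14.5 with at least 1000 genes. Chondrogenic-like cells, from 3 at E13.5 and at E14.5, gave 5 at E13.5 at resolution 2, and 5 at E13.5 and at E14.5 with each library clustered alone, a setting that gave 2, from 4, for stratified over simple epithelium at E14.5.

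The percent of all genes past 2-fold moved with the filter on low values. With a mean of at least 20 CPM it was 1.29 in the lineage at E15.5 over E14.5, 13.4 in the epithelium at E14.5 over E13.5, 6.13 at E15.5 over E14.5 and 15.0 at E15.5 over E13.5, and 9.1 and 8.01 in osteogenic-like cells at E14.5 and E15.5. With no filter it was 16.3 in the lineage at E14.5 over E13.5 and 5.29 at E15.5 over E14.5, 38.9 and 23.6 in the epithelium at E14.5 over E13.5 and at E15.5 over E14.5, and 27.6 and 23.0 in osteogenic-like cells at E14.5 and E15.5.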
